A study of Rattus norvegicus with 60 samples.

Results

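The comparison described here set the hippocampus of 5 rats that had received lamotrigine against the hippocampus of 5 rats that had received injections of its vehicle. The members were the 10 arrays so titled, of 60 arrays in the series. They were chosen by their labels, with earlier results of these data known. Lamotrigine was given at 30 mg/kg under the skin once daily for 21 days. Vehicle rats had the same injections for 21 days without the drug. All rats were of the strain labelled SD, and each tissue piece gave 1 Affymetrix array. The sources used here give neither the age and sex of the rats nor the composition of the vehicle. The same 10 rats, by the numbers in the sample descriptions, also gave a cortex and a striatum array, and a rat is called below by its replicate number. In the same region, 5 arrays of rats fed 0.2% LiCl in chow and 5 of rats fed plain chow helped to estimate the spread.

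Lamotrigine is an anticonvulsant and mood stabilizer. It blocks voltage-gated sodium channels, mainly when neurons fire repetitively, and thereby lowers the release of glutamate. The hippocampus holds dentate granule cells and pyramidal cells in a largely excitatory circuit, and is a common site of seizure onset as well as a region needed for memory. Immediate early genes are transcribed within minutes of neuronal firing, and their RNA level is often read as a trace of recent activity.

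Most markers of a region were highest in that region. Of 7 measured markers of hippocampal neurons 5 were highest in the hippocampus, among them Prox1 of dentate granule cells, with a mean log2 intensity of 9.46 in the hippocampus, 6.60 in the cortex and 7.17 in the striatum. Dsp and Tdo2 were not highest there. All 5 measured striatal markers were highest in the striatum, such as Drd1, at 6.76 in the hippocampus and 11.9 in the striatum. Of 4 cortical markers 2 were highest in the cortex, while Fezf2 and Rasgrf2 were slightly higher in the hippocampus (8.61 and 8.53) than in the cortex (8.55 and 8.48). The median intensity ranged from 93.8 to 101.4 over the 60 arrays, and no array was a copy of another. All levels below are log2 intensities of a probe set, and do not rank genes by abundance.

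A single gene passed the test. Of 31042 probe sets, 1 was called (0.00322%), a fall of Pigg, an enzyme of the glycosylphosphatidylinositol anchor pathway that ties proteins to the cell surface. Its level was 6.40, 6.33, 6.30, 6.41 and 6.40 in the lamotrigine hippocampi, against 6.82, 6.94, 6.90, 6.81 and 6.82 in the vehicle hippocampi (replicates 1 to 5 of each group). The groups were far apart and each was tight. The mean was 6.37 ± 0.05 with lamotrigine and 6.86 ± 0.06 with vehicle (SD, n = 5 each), a log2 change of -0.49 (SE 0.07, adjusted p = 0.0277, limma with Benjamini-Hochberg adjustment), that is 1.40-fold lower with lamotrigine. The call was lost in 7 of 10 fits without 1 array (each lamotrigine array, vehicle replicates 2 and 3), at adjusted p from 0.0717 to 0.156, and in 6 of 13 other fits, at adjusted p up to 0.312, while the log2 change stayed between -0.51 and -0.47. In the same rats Pigg changed by -0.02 in the cortex and -0.04 in the striatum. The difference between the hippocampal change and the mean of the other regions was -0.46 (adjusted p = 0.824, limma), so it did not pass over all probe sets. LiCl against plain chow gave -0.06 for Pigg in the hippocampus.

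Below this threshold, 3063 probe sets had an unadjusted p under 0.05 in limma (9.87%), 1718 of them higher (5.53%) and 1345 lower (4.33%) with lamotrigine. After centring each array on its median these were 1287 higher and 1661 lower. The 5 lamotrigine values lay wholly above the 5 vehicle values for 407 probe sets (1.31%) and wholly below them for 258 (0.831%). The following genes did not pass the test and are given as values. They are the probe sets with 1 gene symbol, an unadjusted p under 0.01 and groups that did not overlap, ordered by size until each direction held 12 genes. There were 131 such probe sets with higher and 101 with lower levels under lamotrigine, and the choice fixed that the groups of each gene were apart.

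Among genes with higher values, Cad had the lowest p. It encodes the enzyme of the first steps of pyrimidine synthesis. Its level was 5.43, 5.52, 5.53, 5.46 and 5.28 in the lamotrigine hippocampi, against 4.96, 4.88, 4.86, 4.94 and 5.07 in the vehicle hippocampi. The difference was 0.51 (SE 0.09, adjusted p = 0.123), while cortex and striatum gave 0.06 and -0.12. The other Cad probe set differed by 0.01. Ncs1, a neuronal calcium sensor, had 8.04, 8.31, 8.18, 8.31 and 8.19 with lamotrigine, against 7.97, 7.56, 7.58, 7.86 and 7.98 with vehicle. Its groups nearly touched, at 8.04 and 7.98, and the difference was 0.42 (SE 0.09, adjusted p = 0.195), with 0.26 in the cortex and -0.05 in the striatum. The 3 other Ncs1 probe sets ranged from 0.07 to 0.32. Ddit4l, an inhibitor of mTOR signalling, had 8.78, 8.45, 8.43, 8.38 and 9.01 with lamotrigine, against 7.81, 8.03, 7.97, 7.74 and 7.98 with vehicle. The difference was 0.70 (SE 0.16, adjusted p = 0.195), against 0.10 in the cortex and 0.14 in the striatum, where the levels of the same rats lay between 5.53 and 6.56.

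Eng, a co-receptor for transforming growth factor beta on endothelial cells, had 6.58, 6.72, 6.81, 6.85 and 6.66 with lamotrigine, against 6.40, 6.54, 6.32, 6.09 and 6.09 with vehicle. It differed by 0.44 (SE 0.10, adjusted p = 0.195). Ypel2 had 6.01, 6.15, 5.88, 6.06 and 5.95 with lamotrigine, against 5.78, 5.31, 5.18, 5.78 and 5.56 with vehicle, a difference of 0.49 (SE 0.12, adjusted p = 0.209). The other members of this group were Pik3r1 (0.93), the regulatory subunit of phosphoinositide 3-kinase, Hbb (0.77), the beta chain of haemoglobin, Fam180a (0.69), the stress gene Gadd45g (0.64), the membrane progestin receptor Paqr8 (0.49), the microtubule protein Map4 (0.41) and the cannabinoid receptor Cnr1 (0.40). The 2 other Map4 probe sets gave -0.04 and 0.05. Another Cnr1 probe set gave 0.07, and the 3 other Paqr8 probe sets ranged from 0.08 to 0.21. Pik3r1, Hbb and Gadd45g are described rat by rat below.

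Among genes with lower values, Wwc1 followed Pigg. Wwc1 encodes KIBRA, a scaffold of the Hippo pathway and of synapses. Its level was 8.25, 8.25, 8.07, 8.03 and 8.37 in the lamotrigine hippocampi, against 8.66, 8.80, 8.62, 8.55 and 8.61 in the vehicle hippocampi. The groups did not overlap and differed by -0.45 (SE 0.09, adjusted p = 0.148), with 0.02 in the cortex and 0.06 in the striatum. A further Wwc1 probe set gave -0.21. Fam149a had 6.32, 6.20, 5.74, 5.98 and 5.92 with lamotrigine, against 6.51, 6.60, 6.73, 6.47 and 6.47 with vehicle, a difference of -0.52 (SE 0.11, adjusted p = 0.195). Another Fam149a probe set gave -0.08. In the striatum the highest Fam149a levels, 7.55 and 7.66, stood in lamotrigine replicates 3 and 5, which were also the lamotrigine striata highest in choroid plexus genes (8.76 and 9.07, against 5.80 to 5.90 in the other lamotrigine striata). What part this had in the striatal values was not tested.

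Pcmtd2 had 9.76, 9.46, 9.14, 9.51 and 9.20 with lamotrigine, against 9.84 to 10.02 with vehicle, a difference of -0.50 (SE 0.11, adjusted p = 0.195). Its other probe set gave -0.05. Ifnar1, a subunit of the receptor for type I interferons, had 5.79, 5.87, 5.36, 5.89 and 5.76 with lamotrigine, against 5.93, 6.26, 6.19, 6.25 and 6.38 with vehicle. It differed by -0.47 (SE 0.11, adjusted p = 0.195), but its 5 other probe sets lay between -0.04 and 0.16. The other members were the lysosomal protease Ctso (-0.57), the chondroitin synthase Chsy3 (-0.48), the translation initiation factor Eif1a (-0.45), the general transcription factor subunit Taf1 (-0.44), the vesicle coat protein Sec24b (-0.43), the lipid flippase Atp8b2 (-0.42) and Pik3ca (-0.42), the catalytic subunit that pairs with Pik3r1. The other 5 Pik3ca probe sets ranged from -0.15 to 0.12, and the 3 other Atp8b2 probe sets from -0.09 to 0.16. All 3 other Eif1a probe sets were lower too, between -0.32 and -0.13. Another probe set gave -0.03 for Taf1 and -0.07 for Sec24b. None of the 23 genes other than Pigg was called in any of 23 alternative fits, and their adjusted p ran from 0.0538 to 0.620 over these.

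**Figure D1:**
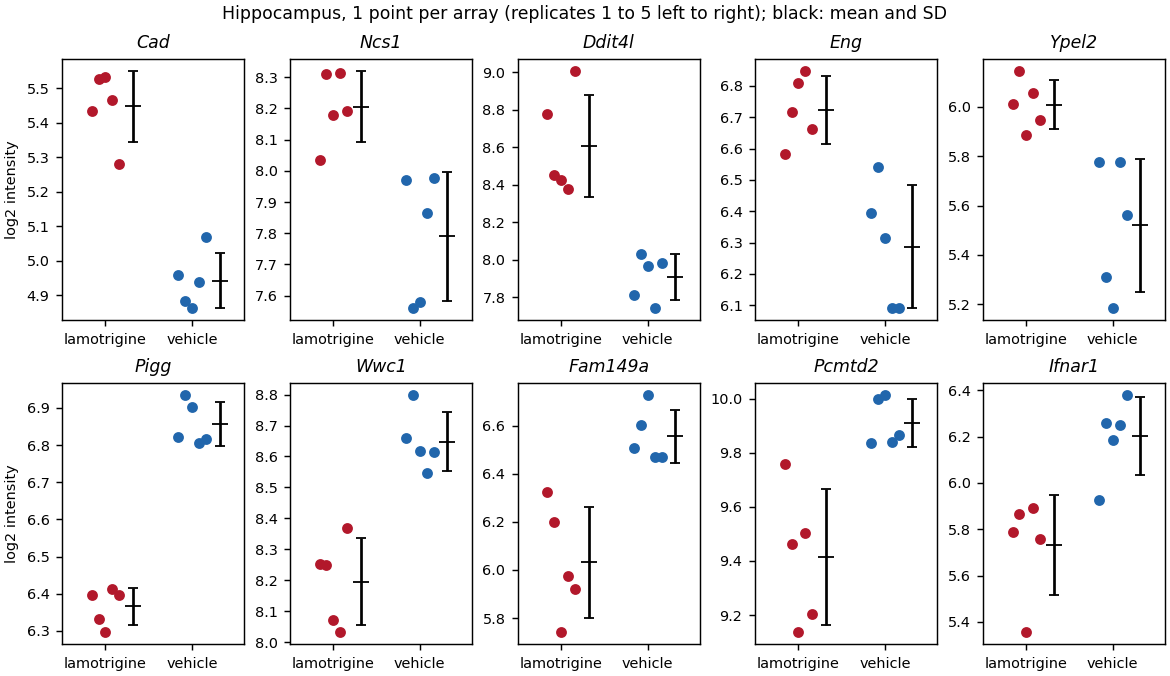
Log2 intensity (vertical axis) of the 5 genes with the lowest p in each direction, for each hippocampus array of lamotrigine and vehicle rats, with the mean and SD in black. Pigg is the gene that passed the test, at 6.37 with lamotrigine and 6.86 with vehicle. The others did not pass, and that their groups do not overlap was part of the choice.

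Whether these differences were particular to the hippocampus was asked with the cortex and striatum arrays of the same 10 rats. The difference between the hippocampal change and the mean of the other regions was called for 0 of 31042 probe sets in limma (0%), with 1849 at an unadjusted p under 0.05 (5.96%). Among the 24 named genes the lowest p for this difference belonged to Cad (0.53, adjusted p = 0.649) and Ddit4l (0.58, adjusted p = 0.649). The 24 genes were chosen on the hippocampal values, which favours a larger change there than in the other regions. For Pik3r1 and Gadd45g the differences were 0.15 and 0.11 (adjusted p = 0.960 and 0.958), and cortex and striatum had given 0.76 and 0.80 for Pik3r1 and 0.61 and 0.46 for Gadd45g. In neither of those regions was any probe set called for lamotrigine (0%), with 1799 in the cortex (5.80%) and 1193 in the striatum (3.84%) at an unadjusted p under 0.05 in limma.

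**Figure D2:**
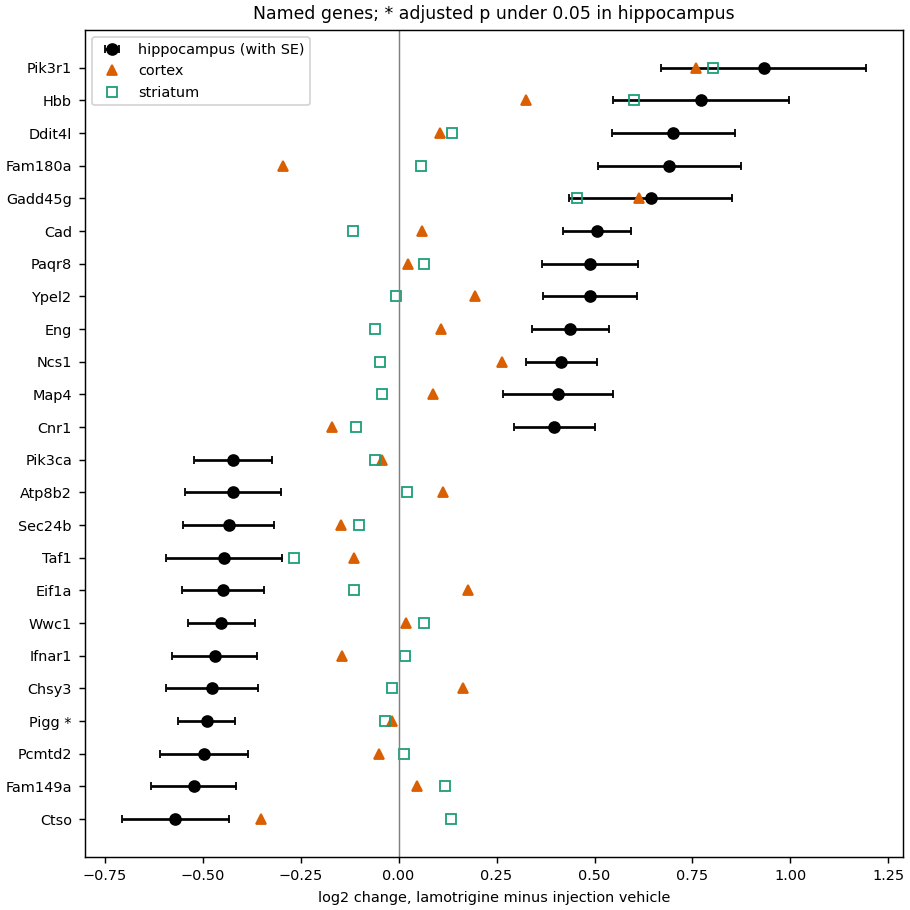
Log2 change, lamotrigine minus injection vehicle (horizontal axis), of the 24 named genes in the hippocampus (black, with SE), the cortex (triangles) and the striatum (squares). Pik3r1, Gadd45g and Hbb are higher in all 3 regions, while Cad, Ddit4l, Pigg and Wwc1 lie between -0.12 and 0.14 outside the hippocampus. The genes were chosen on the hippocampal values.

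Some differences followed single rats. Pik3r1 had 6.56, 6.38, 6.82, 8.05 and 7.85 in the lamotrigine hippocampi, against 6.11, 6.26, 6.11, 6.14 and 6.38 in the vehicle hippocampi. Lamotrigine rats 4 and 5 stood apart in each region, at 8.39 and 8.33 in the cortex and at 8.36 and 7.94 in the striatum, while no other rat of either group exceeded 7.09. Without lamotrigine replicate 4 the hippocampal change of Pik3r1 was 0.70. Gadd45g had 8.63, 7.29, 7.17, 6.98 and 7.17 with lamotrigine, against 6.91, 6.46, 6.86, 6.97 and 6.83 with vehicle. Lamotrigine replicate 1 made up much of it, and the change was 0.35 without that array.

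Single vehicle rats stood out for a further pair of genes. Hyou1, an endoplasmic reticulum chaperone and the gene with the lowest p of its list, had 8.30, 8.41, 8.40, 8.42 and 8.36 in the lamotrigine hippocampi, against 7.52, 7.72, 7.75, 8.36 and 7.72 in the vehicle hippocampi. Vehicle rat 4 was high in the cortex (8.35) and the striatum (8.49) too. The change was 0.56 (SE 0.11, adjusted p = 0.148) with all arrays, and 0.70 (adjusted p = 0.000357, limma) without vehicle replicate 4, which passed. That array held the highest vehicle value, so leaving it out could only widen the difference. Of 23 alternative fits only this 1 called Hyou1, and adjusted p in the others reached 0.379. Another Hyou1 probe set gave 0.41. In cortex and striatum Hyou1 differed by 0.61 and 0.63. Of the 25 measured genes of protein folding and stress in the endoplasmic reticulum, Hyou1 included, 7 had higher and 18 lower values (median -0.03).

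Rap2b, a small GTPase of the Ras family that was chosen after its values were seen, had 6.44, 7.03, 7.24, 6.34 and 7.34 with lamotrigine, against 6.46, 5.59, 5.64, 5.68 and 5.60 with vehicle. Vehicle rat 1 lay within the lamotrigine range in the hippocampus and was the highest vehicle rat in the cortex (5.89) and the striatum (6.19). The change was 1.09 (SE 0.21, adjusted p = 0.148) with all arrays and 1.25 (adjusted p = 0.0430, limma) without vehicle replicate 1. Here too the array left out held the highest vehicle value. Of 23 alternative fits only this 1 called Rap2b, and adjusted p in the others reached 0.379. Because the regions came from the same rats, a difference that recurs across regions is not an independent repeat.

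**Figure D3:**
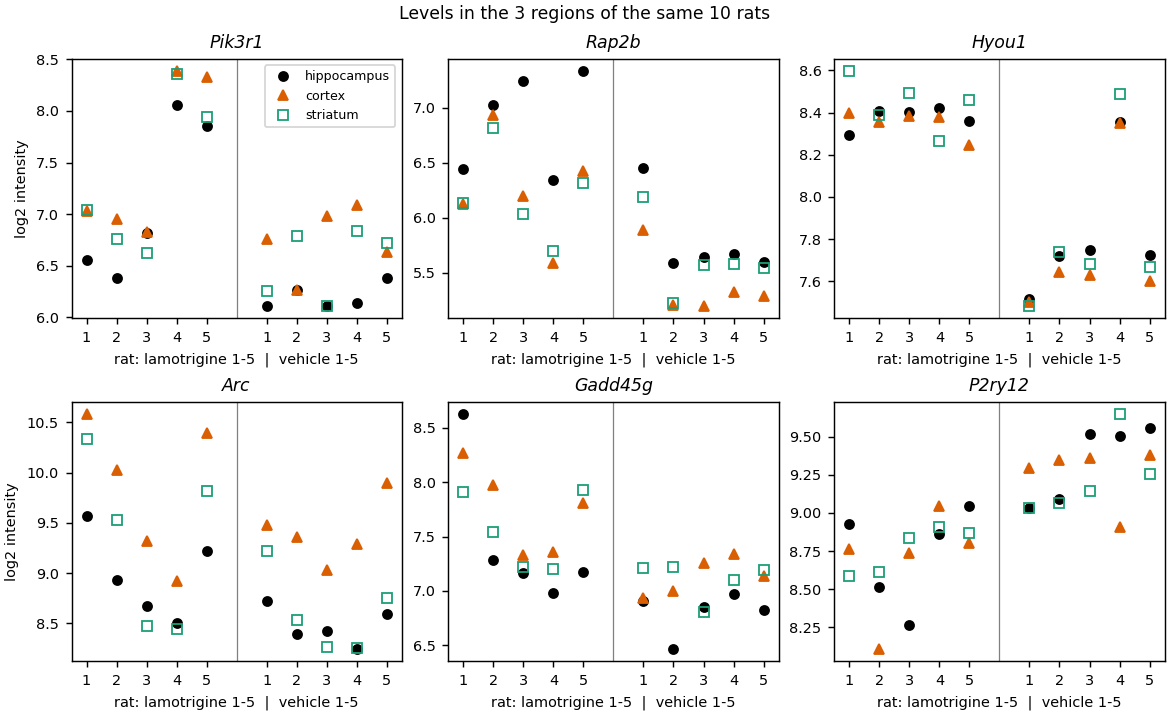
Log2 intensity (vertical axes) of 6 genes in the hippocampus, cortex and striatum of each rat (horizontal axes, lamotrigine rats 1 to 5, then vehicle rats 1 to 5). Lamotrigine rats 4 and 5 are high in Pik3r1, vehicle rat 4 in Hyou1 and vehicle rat 1 in Rap2b, in all 3 regions.

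Immediate early genes had mostly higher values. Of 23 measured genes 20 were higher with lamotrigine, with a median log2 change of 0.16, where 48.4% of all 14224 genes were higher and their median was -0.00. None was called. An unadjusted p under 0.05 was reached by 7 genes, all higher, while 9.60% of all genes reached it, 4.20% with higher values. Arc, which trims synaptic glutamate receptors, had 9.57, 8.93, 8.67, 8.51 and 9.22 in the lamotrigine hippocampi, against 8.72, 8.39, 8.43, 8.24 and 8.59 in the vehicle hippocampi. The groups overlapped, and the difference was 0.51 (SE 0.15, adjusted p = 0.279). Its values were higher by 0.44 in the cortex and 0.71 in the striatum.

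The transcriptional regulators of this list differed by less. Junb had 9.23, 8.58, 8.05, 8.28 and 8.48 with lamotrigine, against 8.23, 7.93, 8.21, 8.16 and 8.23 with vehicle (difference 0.37, SE 0.14, adjusted p = 0.395). Nr4a1 had 8.96 to 9.26 with lamotrigine, against 8.72 to 9.13 with vehicle (difference 0.27, SE 0.09, adjusted p = 0.309). Ier2 had 7.48, 6.98, 6.34, 6.44 and 6.89 with lamotrigine, against 6.57, 6.38, 6.44, 6.38 and 6.37 with vehicle (difference 0.40, SE 0.16, adjusted p = 0.414). In Junb and Ier2 lamotrigine rats 1, 2 and 5 were high while rats 3 and 4 lay in or close to the vehicle range. Egr1 (0.18), Egr3 (0.18) and Maff (0.15) completed the 7. Fos, the best known of these genes, spread from 7.67 to 10.03 with lamotrigine and from 7.96 to 8.64 with vehicle, with a difference of 0.41 (adjusted p = 0.703).

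The mean level of the 23 genes was 7.90, 7.70, 7.51, 7.61 and 7.75 in the lamotrigine hippocampi, against 7.63, 7.44, 7.47, 7.56 and 7.47 in the vehicle hippocampi. Lamotrigine rats 1, 2 and 5 had the highest means of their group in the cortex (8.33, 8.17 and 8.15, against 7.70 and 7.72 in rats 3 and 4) and in the striatum (8.12, 7.80 and 7.77, against 7.21 and 7.11). The level thus varied among rats in all regions together, with 2 lamotrigine rats inside the vehicle range of each region or below it. The sources used here do not state the time between the last injection and dissection.

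Because Junb, Ier2 and the mean of the list were high in the same rats, the promoters of the list were searched. The stretch sought was the cyclic AMP response element, the site of the activity-regulated factor CREB. Its full palindrome is TGACGTCA and its core TGACG, and both strands were searched in the 250 bases before the start of transcription (RefSeq, rat build GRCr8). Arc and Egr3 had no sequence and were not searched. The full element was found in 3 of the 17 immediate early genes with a sequence, Dusp1, Ier2 and Maff, and in 1.7% of 27457 promoters. The core, which also counts the full element, was found in 11 of 17 and in 19.0% of all promoters. The AP-1 site TGANTCA was found in 0 of 17 and in 6.4% of all, and TATAAA in 6 of 17 and in 13.1% of all. A match is a stretch of letters only, and binding was not measured. The sequences of 4 genes are shown 5′ to 3′ on the strand of the gene, with each element or core, on either strand, in capitals. They lie at chr7:134259888-134260137 (Nr4a1), chr19:40080876-40081125 (Junb), chr19:40399123-40399372 (Ier2) and chr7:112792537-112792786 (Maff), each on the plus strand.
Nr4a1: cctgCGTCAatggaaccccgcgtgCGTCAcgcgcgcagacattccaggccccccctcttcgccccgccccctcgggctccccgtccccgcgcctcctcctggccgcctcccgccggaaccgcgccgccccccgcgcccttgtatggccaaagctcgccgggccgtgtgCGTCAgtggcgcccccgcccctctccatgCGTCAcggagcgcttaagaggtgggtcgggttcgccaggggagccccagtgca
Junb: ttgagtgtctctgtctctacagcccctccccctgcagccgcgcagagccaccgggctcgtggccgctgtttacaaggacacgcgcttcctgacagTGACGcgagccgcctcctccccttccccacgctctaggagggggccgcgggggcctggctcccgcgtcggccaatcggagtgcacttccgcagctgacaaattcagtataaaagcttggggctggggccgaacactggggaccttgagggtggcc
Ier2: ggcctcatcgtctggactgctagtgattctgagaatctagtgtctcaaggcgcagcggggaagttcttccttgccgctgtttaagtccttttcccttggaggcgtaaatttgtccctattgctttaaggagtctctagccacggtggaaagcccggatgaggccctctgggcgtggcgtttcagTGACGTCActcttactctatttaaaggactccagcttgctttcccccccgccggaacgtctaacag
Maff: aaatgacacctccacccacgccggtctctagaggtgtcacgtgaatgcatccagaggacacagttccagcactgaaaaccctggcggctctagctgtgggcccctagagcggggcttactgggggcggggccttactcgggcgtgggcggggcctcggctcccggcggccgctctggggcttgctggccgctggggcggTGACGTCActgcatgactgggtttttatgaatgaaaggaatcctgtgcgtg
Nr4a1 held 4 cores and no full element, Junb held 1 core, and Ier2 and Maff each held 1 full element. Egr1, which is not shown, held 2 cores and no full element.

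The targets of the drug showed little. Of 14 measured genes of sodium channels and their anchoring and modulating partners 8 had higher values, with a median log2 change of 0.03, and none was called. Scn4a, the channel of skeletal muscle, had the lowest p (0.20, SE 0.09, adjusted p = 0.463), followed by Scn3a (0.19, SE 0.09, adjusted p = 0.495). The main neuronal channels Scn1a, Scn2a and Scn8a differed by -0.03, 0.08 and 0.18. Their partners Scn2b, Scn3b, Scn4b and Ank3 lay at -0.01, 0.11, -0.13 and -0.00, and Fgf12, Fgf13, Fgf14, Nalcn and Scn9a between -0.06 and 0.08. The SE of these differences ranged from 0.04 for Nalcn to 0.14 for Scn4b. Other probe sets gave 0.24 for Scn2b, 0.18 for Scn3b, 0.18 for Fgf14, 0.04 and 0.17 for Ank3, and -0.17 and 0.18 for Fgf12. With the mean over all probe sets of a gene the list median was 0.07. After quantile normalization 11 of 14 genes were higher, with a median of 0.06.

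Other channels, receptors and synaptic genes had list medians from -0.02 to 0.08. Glutamate receptors and scaffolds had 20 of 28 genes higher (median 0.08), against 48.4% of all genes, and the lowest p belonged to a lower value, Gria3 at -0.20. Another Gria3 probe set gave 0.12. Calcium channels had 12 of 17 higher (median 0.05, Cacna2d3 at 0.11), potassium and HCN channels 13 of 26 (0.01, Kcnab1 at -0.22). Another Kcnab1 probe set gave 0.01. Of the potassium and HCN channel genes 19.2% had an unadjusted p under 0.05 (2 higher and 3 lower), against 9.60% of all genes. Of genes for glutamate release and uptake 4 of 12 were higher (-0.01), of GABA receptors 4 of 12 (-0.02), of interneuron genes 8 of 16 (-0.00, Penk at -0.27), and of synaptic vesicle genes 15 of 26 (0.02, Snap25 at -0.08). No gene of these lists was called.

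Of 21 serotonin and monoamine receptors 16 had higher values (median 0.04). Htr1b, an inhibitory serotonin receptor of axon terminals, had 5.74, 5.77, 5.65, 5.70 and 5.63 in the lamotrigine hippocampi, against 5.47, 5.22, 5.42, 5.37 and 5.13 in the vehicle hippocampi. The groups did not overlap, and the difference was 0.37 (SE 0.09, adjusted p = 0.201), with 0.19 in the cortex and -0.10 in the striatum. Htr6 was also without overlap, with 4.95 to 5.11 under lamotrigine and 4.63 to 4.92 with vehicle (difference 0.24, SE 0.08, adjusted p = 0.296). Both probe sets were dim, like those of Cad, Scn4a and Gdnf, at levels where the median difference of all probe sets was 0.04.

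The hippocampus arrays of lamotrigine rats had a narrower spread of values than those of vehicle rats. The interquartile range of log2 intensity was 3.54 ± 0.03 with lamotrigine and 3.61 ± 0.03 with vehicle (SD, n = 5 each), with ranges of 3.51 to 3.58 for lamotrigine and 3.55 to 3.64 for vehicle (exact two-sided permutation test, p = 0.0159, adjusted p = 0.0476 over 3 array measures, where the smallest p of 5 against 5 is 0.00794). Median intensity and the 3′ to 5′ difference had p = 0.278 and 0.238 in the same exact test. With this spread the median log2 change was 0.04 over the 12949 probe sets below a level of 6, 0.01 between 6 and 8, -0.02 between 8 and 10 and -0.02 over the 2488 above 10. Dim genes thus leaned to higher and bright genes to lower values with lamotrigine. A narrow spread was not particular to lamotrigine. The interquartile range was 3.43 to 3.56 in the plain chow hippocampi and 3.56 to 3.63 in the LiCl hippocampi. In the striatum it was 3.35 to 3.45 with lamotrigine and 3.37 to 3.46 with vehicle. The cortex gave 3.36 to 3.58 with lamotrigine and 3.52 to 3.58 with vehicle. The fits were repeated with the interquartile range as a covariate and, separately, after quantile normalization, which makes the spread of all arrays equal.

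Some lists of bright genes had mostly lower values. Of oxidative phosphorylation genes 2 of 25 had higher values (median -0.05, Uqcrc2 at -0.11), and of proteasome subunits 4 of 25 (-0.05, Psmd12 at -0.24). When the interquartile range entered the fit, 11 and 13 of 25 were higher, and the medians were -0.01 and 0.01. After quantile normalization 6 and 9 of 25 were higher, and the medians were -0.03 and -0.02. Cytosolic ribosomal proteins had 5 of 15 higher (-0.02, Rpl13a at -0.13), 11 of 15 with that covariate and 9 of 15 after quantile normalization. Astrocyte genes had mean levels of 10.75 to 11.11 in the lamotrigine and vehicle hippocampi. Oxidative phosphorylation genes had 11.37 to 11.63 and proteasome subunits 10.49 to 10.77. Of the astrocyte genes 11 of 19 were higher (median 0.04), 15 of 19 with that covariate and 14 of 19 after quantile normalization.

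Myelin genes were lower throughout. Of 19 measured genes of oligodendrocytes and myelin 0 were higher with lamotrigine and the median was -0.20, where 51.6% of all genes were lower, 5.40% at an unadjusted p under 0.05. None was called, and 5 had an unadjusted p under 0.05 in limma: Ugt8, which makes the myelin lipid galactosylceramide (-0.40, SE 0.13, adjusted p = 0.308), Ermn (-0.44), Mal (-0.37), Mobp (-0.20) and Mbp, the main protein of compact myelin (-0.12). Ugt8 had 9.10, 9.67, 8.89, 9.54 and 9.10 with lamotrigine, against 9.62, 9.38, 9.68, 9.80 and 9.82 with vehicle, and the groups overlapped. Another Ugt8 probe set gave -0.04, while the 2 other Ermn probe sets gave -0.35 and -0.29. The mean level of the list was 9.47, 9.97, 9.39, 9.80 and 9.67 with lamotrigine, against 9.81, 9.68, 9.84, 10.05 and 10.03 with vehicle. Fewer cells of a type and less RNA per cell cannot be told apart in such tissue, and the share of white matter in each piece was not measured. With the spread covariate 3 of 19 were higher and the median was -0.13, while after quantile normalization 0 of 19 were higher and the median was -0.18. In the same rats 13 of 19 genes of the list were higher in the cortex (median 0.02) and 3 of 19 in the striatum (median -0.05). Of all genes 53.8% and 57.8% were higher in these regions. LiCl against plain chow in the hippocampus also gave 3 of 19 higher (median -0.07), against 54.1% of all genes.

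Microglial genes were mostly lower, with 3 of 19 higher and a median of -0.12. P2ry12, the ADP receptor of resting microglia, had 8.93, 8.52, 8.26, 8.86 and 9.05 in the lamotrigine hippocampi, against 9.03, 9.09, 9.52, 9.51 and 9.56 in the vehicle hippocampi. Only lamotrigine replicate 5 and vehicle replicate 1 crossed. The difference was -0.62 (SE 0.15, adjusted p = 0.209), and another P2ry12 probe set gave -0.51. The cortex gave -0.57 (adjusted p = 0.505) and the striatum -0.47 (adjusted p = 0.997), and the hippocampus differed from their mean by -0.10 (adjusted p = 0.950). Cx3cr1, the fractalkine receptor of the same cells, went the other way, with 7.75, 7.74, 7.60, 7.64 and 7.82 with lamotrigine, against 7.17, 7.34, 7.56, 7.54 and 7.52 with vehicle (difference 0.28, SE 0.10, adjusted p = 0.362). Aif1, Cd68 and Ctss gave -0.28, -0.20 and -0.15. With the spread covariate 9 of 19 microglial genes were higher and the median was -0.03, while after quantile normalization 2 of 19 were higher and the median was -0.12. In the same rats 2 of 19 were higher in the cortex (median -0.11) and 7 of 19 in the striatum (median -0.04). LiCl against plain chow in the hippocampus gave 13 of 19 higher (median 0.10).

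Other glia and neurons differed little. Astrocyte genes had 11 of 19 higher (median 0.04, Clu at -0.14), and genes of hippocampal principal neurons 13 of 20 (0.03, Kcnip4 at -0.11). Another Clu probe set gave 0.06. Genes of proliferation and immature neurons had 10 of 21 higher (-0.01). Igfbpl1, expressed in newborn neurons, gave -0.69 (SE 0.26, adjusted p = 0.388), with lamotrigine values from 4.80 to 6.26 and vehicle values from 5.28 to 6.91.

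Blood genes were higher in every member measured, 9 of 9, with a median of 0.67. Hbb had 13.27, 12.96, 12.91, 13.33 and 13.21 in the lamotrigine hippocampi, against 12.60, 11.84, 12.41, 12.73 and 12.25 in the vehicle hippocampi. Its groups did not overlap (difference 0.77, SE 0.23, adjusted p = 0.275), and the gene was higher by 0.33 in the cortex and 0.60 in the striatum. Alas2, the haem synthesis enzyme of red cell precursors, had 7.56, 7.11, 6.59, 7.60 and 7.39 with lamotrigine, against 6.27, 5.93, 6.34, 7.08 and 6.19 with vehicle (difference 0.89, SE 0.25, adjusted p = 0.271). The white cell genes S100a8 and S100a9 differed by 0.70 and 1.07 (adjusted p = 0.691 and 0.562). The mean level of the list was 6.73, 6.61, 6.54, 8.21 and 6.67 with lamotrigine, against 6.36, 6.24, 6.47, 6.52 and 6.25 with vehicle. Lamotrigine replicate 4 stood far above the others, and without it 8 of 9 genes were higher and the median was 0.12. In S100a9 this array had 9.04, against 3.97 to 4.93 in the other lamotrigine hippocampi. Hbb and Alas2 did not depend on it alike. With any 1 array left out, their differences stayed at or above 0.64 and 0.78. The sources used here do not state whether blood was washed out before dissection.

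Vessel and meningeal genes were also mostly higher, with 18 of 21 genes of endothelium and pericytes (median 0.10, Anpep at 0.22) and 14 of 18 of meninges and fibroblasts (0.16, Slc22a6 at 0.43). With 1 array left out these medians ranged from 0.06 to 0.19 and from 0.08 to 0.37, and with the spread covariate 13 of 21 genes of endothelium and pericytes were higher (0.05). Col1a1 had 6.41, 5.80, 7.58, 9.97 and 6.13 with lamotrigine, against 6.49, 6.06, 7.07, 5.73 and 5.59 with vehicle (difference 0.99, SE 0.53, adjusted p = 0.557). Lamotrigine replicate 4, which was also high in blood genes, stood far above the rest. In the cortex of the same rats the list medians were -0.14 for endothelium and pericytes and -0.30 for meninges and fibroblasts. Choroid plexus genes ran the other way, with 2 of 16 higher and a median of -0.62. Mean levels were 5.65 to 6.60 in the lamotrigine hippocampi, against 8.29 and 8.05 in vehicle replicates 1 and 3 and 5.66 to 5.79 in the other vehicle hippocampi. Without vehicle replicates 1 and 3 and the 2 highest of the chow arm, 15 of 16 choroid plexus genes were higher and the median was 0.26, and no probe set was called in limma (2533 at an unadjusted p under 0.05). In that fit the medians of immediate early, myelin and microglial genes were 0.19, -0.24 and -0.13, and that of meninges and fibroblasts was 0.60, with 17 of 18 higher.

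**Figure D4:**
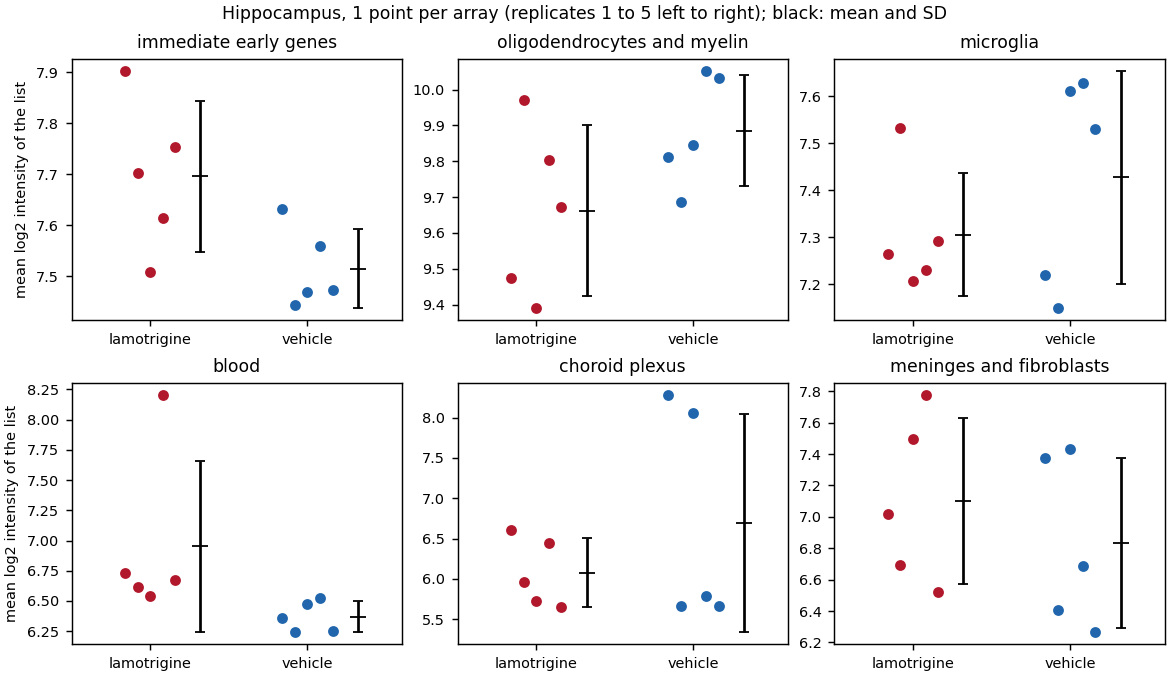
Mean log2 intensity (vertical axes) of 6 gene lists for each hippocampus array of lamotrigine and vehicle rats, with the mean and SD in black. Lamotrigine replicate 4 is high in blood genes at 8.21, and vehicle replicates 1 and 3 are high in choroid plexus genes at 8.29 and 8.05.

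Lists of signalling and stress genes had medians within 0.05 of 0, although members of some differed in both directions. In the glucocorticoid list, 8 of 19 genes were higher (median -0.02). The glucocorticoid receptor Nr3c1 had 9.01, 9.12, 8.72, 8.93 and 8.76 in the lamotrigine hippocampi, against 9.28, 9.25, 9.20, 9.17 and 9.10 in the vehicle hippocampi, with an overlap of 1 array (difference -0.29, SE 0.08, adjusted p = 0.245). Sc5d, an enzyme of late cholesterol synthesis, had 9.89, 9.87, 9.64, 9.75 and 9.42 with lamotrigine, against 9.91, 9.98, 10.01, 10.10 and 10.03 with vehicle. It differed by -0.29 (SE 0.07, adjusted p = 0.209) without overlap, in a list with 12 of 21 genes higher (median 0.01). The 2 other Sc5d probe sets both gave -0.05. In the Wnt and GSK3 list 12 of 24 were higher (0.00), with Lrp6, a Wnt co-receptor, at 0.38 and Gsk3b at 0.18, and 3 higher and 3 lower genes of the 24 had an unadjusted p under 0.05, against 9.60% of all genes. Inositol genes, often studied with mood stabilizers, had 11 of 28 higher (-0.03, Slc2a13 at 0.12), and genes of cyclic AMP and protein kinase C signalling 13 of 27 (-0.01, Prkar2a at -0.14). The 2 other Prkar2a probe sets gave 0.12 and 0.15.

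Secreted growth factors had 7 of 17 higher (-0.01), with Gdnf at 0.22 and 23.5% at an unadjusted p under 0.05 (3 higher and 1 lower). Folate and one-carbon genes, of interest because the drug weakly inhibits dihydrofolate reductase, had 9 of 19 higher (-0.01), with Mthfd1l at -0.22. Genes of drug metabolism and efflux had 11 of 21 higher (0.01), cytosolic heat shock proteins 5 of 14 (-0.02), clock genes 13 of 20 (0.04, Nr1d2 at -0.13) and thyroid hormone genes 5 of 10 (-0.02). The 2 other Nr1d2 probe sets gave -0.09 and 0.06. Inflammatory mediators had 18 of 30 higher (0.04, Ccl3 at 0.24), genes of interferon response and antigen presentation 14 of 23 (0.04, RT1-Bb at 0.35), and genes of the Bcl2 family and apoptosis 7 of 15 (-0.03, Bbc3 at 0.20). Neighbouring regions had 10 of 21 marker genes higher (-0.01, Oxt at 0.23).

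**Figure D5:**
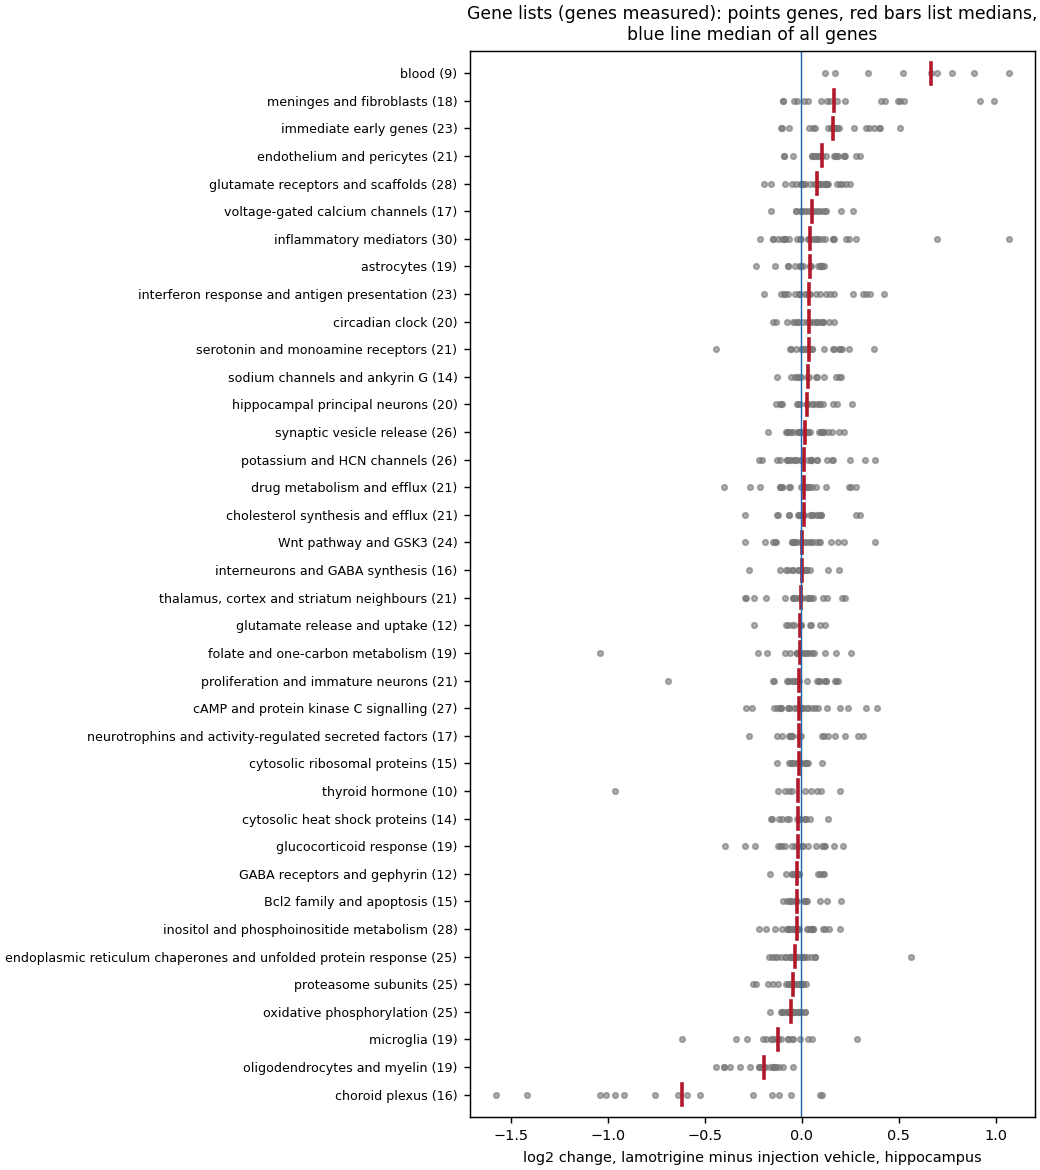
Log2 change, lamotrigine minus injection vehicle in the hippocampus (horizontal axis), of each gene (points) in 38 lists, with the list median as a red bar and the median of all 14224 genes as a blue line. Blood lies highest at 0.67 and choroid plexus lowest at -0.62, and most lists sit at the line.

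Lamotrigine was also set against LiCl, each relative to its own vehicle. The difference between both effects in the hippocampus was called for 0 of 31042 probe sets in limma (0%), with 4468 at an unadjusted p under 0.05 (14.4%). Cad differed most clearly among the named genes, with 0.51 for lamotrigine and -0.22 for LiCl (difference 0.73, adjusted p = 0.0730). The choice of these genes used the lamotrigine and vehicle values, which enter this difference too. Ddit4l had 0.70 for lamotrigine and -0.19 for LiCl (adjusted p = 0.0984), and Pigg -0.49 for lamotrigine and -0.06 for LiCl (adjusted p = 0.0870). The serotonin receptor Htr1b had 0.37 for lamotrigine and -0.28 for LiCl (adjusted p = 0.0730). With the interquartile range as a covariate, the lowest adjusted p of any probe set for the difference between the drugs was 0.395 in limma. In that fit 1861 probe sets had an unadjusted p under 0.05. Chsy3 was lower by a like amount under both drugs, with -0.48 for lamotrigine and -0.45 for LiCl (difference -0.03, adjusted p = 0.961). Arc was higher under both, with 0.51 for lamotrigine (adjusted p = 0.279, limma) and 0.79 for LiCl (adjusted p = 0.0297, limma). Of the 23 immediate early genes 12 were higher with LiCl (median 0.00), against 54.1% of all genes. The count of probe sets called for the difference between the drugs depended on 1 array, being 167 without chow vehicle replicate 5. That array had the highest choroid plexus level (6.97) and the widest interquartile range (3.56) of its group. Its 3′ to 5′ difference, a sign of RNA quality, was 0.812, against 0.476 to 0.682 in the other 19 hippocampus arrays. The part of these measures in the count was not tested. The routes differed between the drugs, so drug and route cannot be told apart here.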

How the data were processed

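RNA was measured on Affymetrix rat arrays. The deposited values are intensities that came from RMA as run by the authors (R 2.7.2, per the submitters' processing notes), on a linear scale from 6.93 to 28582.45. Their log2 was taken with no pseudocount. RMA normalizes between arrays, which can turn a difference in spread into small opposite shifts of dim and bright probe sets. Of 31099 probe sets 57 controls were left out. Symbols came from the platform annotation, updated through RefSeq where it matched by gene number or accession (20837 probe sets with 1 symbol, 14224 genes, 425 with several and 9780 unnamed here). Pigg is listed there under more than 1 gene number.

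All 20 hippocampus arrays were fitted with limma 3.58.1 in R 4.3.3 (group means, eBayes with an intensity trend, two-sided), with Benjamini-Hochberg adjustment over 31042 probe sets and calls at an adjusted p under 0.05. The region difference used the 30 arrays of the injection arm with the rat as a random block (consensus correlation 0.139). The labels name the tissue as mouse and the delivery as constant, and the organism and design fields (rat, daily injection) were followed. Numbers in the descriptions were read as rats. Whether the samples of a group were otherwise separate is not stated, and p-values then measure only the spread between these arrays. Lists were described on the probe set with the highest mean per gene. The fit was tested on simulated data. Members, gene lists and rules were chosen with earlier results of these data known. Named genes were the called genes (up to 15 per direction), filled to 12 per direction as the text states, the called or lowest-p member (unadjusted p under 0.05) of each list, and all sodium channel genes. Alternatives were another normalization, centring, variance prior, filter on dim probe sets, array weights, covariates, a replicate block and each array left out.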

Additional observations from a re-analysis of the deposited data

Results flagged for a closer look

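In 188 groups of 5 arrays (named genes and list means, lamotrigine and vehicle), 17 held an array far from the other 4 by Dixon's criterion (9.0%), where chance gives about 1 in 20 groups. Among lamotrigine hippocampi these were Gadd45g in replicate 1 (8.63), Ifnar1 and Gdnf in replicate 3 (5.36 and 4.75), and Nr1d2 in replicate 4 (9.92). Lamotrigine replicate 2 stood apart in the mean level of sodium channels (8.88), potassium channels (8.67), clock genes (8.49) and microglial genes (7.53), and replicate 4 in those of blood (8.21) and inflammatory mediators (5.96), lists that share S100a8 and S100a9. Among vehicle hippocampi, replicate 1 stood apart for Chsy3 (4.37) and Oxt (4.21), replicate 2 for Gadd45g (6.46), Taf1 (7.20) and the cytosolic heat shock proteins (9.14), and replicate 4 for Hyou1 (8.36) and Ccl3 (5.39). The 188 groups came from the same 10 arrays and were not independent, so 9.0% beside 1 in 20 cannot show an excess. With all arrays and probe sets, no probe set passed the limma test of the difference between regions or between the drugs (1849 and 4468 at an unadjusted p under 0.05), although some alternatives gave calls for the drugs.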

How the results depend on the processing

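The count of 1 called probe set held under quantile normalization, median centring, no intensity trend, a robust prior, array weights, the 3′ to 5′ covariate and without dim probe sets. It was 0 with only the 10 arrays, with the array spread, choroid plexus or haemoglobin covariate (the last chosen after seeing the data), with the replicate block, and without arrays high in choroid plexus genes (also chosen after seeing the data). Leaving out 1 array gave 0 to 3 calls (2 without vehicle replicate 1 or 5, 3 without vehicle replicate 4). Probe sets at an unadjusted p under 0.05 numbered 1781 of 18056 without dim probe sets, 2894 with the replicate block and 2328 with the array spread. Replicate numbers name different rats, and their deviations correlated from -0.49 to 0.14, with 0 of 5 lamotrigine arrays closest to their own number. The comparison with LiCl gave 1 call without dim probe sets and 0 to 167 calls without 1 array (2 without LiCl replicate 2 or vehicle replicate 3, 1 without LiCl replicate 1), and 1861 probe sets at an unadjusted p under 0.05 with the array spread. The region difference gave 0 calls in all 14 alternatives. Among the named genes refitted under the alternatives, which include Scn4a but no other sodium channel gene, none turned its direction. Where the groups of a gene did not overlap, leaving out 1 array could not turn it, so those fits do not test its direction. Leaving out 1 array moved list medians across 0 only among lists whose median lay within 0.05 of it. Elsewhere medians kept their sign, as for immediate early (0.14 to 0.21), myelin (-0.28 to -0.13), microglial (-0.17 to -0.04), blood (0.12 to 0.83) and choroid plexus genes (-0.86 to -0.13). The choroid plexus median turned to 0.26 without the high arrays. The number of arrays and dim signals limit the precision.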
